A study of Mus musculus with 13 samples.

Results

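Endothelial cells line blood vessels and platelets circulate as fragments of megakaryocytes, and both shed vesicles that carry microRNAs (miRNAs) into plasma. Vesicle RNA from plasma therefore holds a set of miRNAs that are known for these sources. The 6 described here were taken by name, as miRNAs known from endothelial cells or platelets: mmu-miR-126a-3p, mmu-miR-126a-5p, mmu-miR-221-3p, mmu-miR-222-3p, mmu-miR-191-5p and mmu-miR-199a-3p (written without mmu-, for mouse, below), out of 1354 miRNAs in the plasma table and 1164 in the table of cell vesicles, and all 6 were present in both. The labels name no sorted endothelial or platelet material, so the names describe where these miRNAs are known to be abundant and not where the counted molecules came from.

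Vesicles came from 3 kinds of material, all of Balb/C origin. Tumour microvesicles (TMVs; 3 libraries) were spun from serum-free medium conditioned for 48 h by C26 cells, a colon adenocarcinoma line. Plasma vesicles came from mice given 500000 C26 cells under the skin and killed on day 14, which the labels also call cachectic (6 libraries), and from control mice that the labels call healthy (4 libraries). C26 cells are 1 line, the C26-bearing mice carry this line as a graft under the skin and not in the colon, and neither age nor sex is given for the mice. In the labels, control replicates 2 and 3 each have 2 numbers in the description, with no stated meaning. Nothing states that each library is a separate animal, so p-values measure the spread between libraries only.

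The TMV libraries held 112357 to 170571 counts and the plasma libraries 7962 to 131385. In C26-bearing replicates 1 to 4 and control replicate 4, miR-5119 alone took 26.6 to 58.7% of all counts, against 0.0968 to 2.55% in the other 5 plasma libraries. The first 5 are called miR-5119-rich below and the other 5 miR-5119-poor, and values are given for each. Each description in the labels ends in S and a number, with no stated meaning, and the miR-5119-rich libraries have consecutive numbers, 18 to 22. These numbers also follow group, with 15 to 18 in control and 19 to 24 in C26-bearing plasma. TMVs carry 22 to 24 as well. C26-bearing replicate 4 and control replicate 4 were the shallowest, with 9828 and 7962 counts. Red cell markers (miR-451a, miR-486a-5p, miR-144-3p and miR-16-5p) summed to 3.50 to 52.7% of counts in C26-bearing and 5.98 to 31.3% in control plasma, and the liver markers miR-122-5p and miR-192-5p to 0.761 to 10.2% and 6.66 to 28.1%. The myeloid markers miR-223-3p and miR-142a-3p summed to 0.00310 to 0.189% in C26-bearing and 0.00538 to 0.0628% in control plasma, and miR-223-3p was at 0 in C26-bearing replicates 5 and 6 and in control replicate 2. In TMVs, the epithelial markers miR-200b-3p, miR-200c-3p and miR-141-3p summed to 1 or 2 counts per library, and miR-141-3p was at 0 in all 3, so the defining markers of epithelial cells were at or near 0 in vesicles of this colon tumour line.

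A mature miRNA guides silencing proteins to messenger RNAs that match its seed, bases 2 to 8 from the 5′ end. Each hairpin precursor can give a mature strand from its 5′ side (5p) and its 3′ side (3p), and commonly 1 strand is kept while the other is degraded. Endothelial miR-126a sits within Egfl7, a gene of vessel growth, and its 3p strand is known to sustain growth factor signalling in vessels by repressing Spred1 and Pik3r2. RefSeq sequences were found for 5 of the 6, and miR-126a-5p is named only. The 5 are shown because seed sharing, precursor neighbours and an identical copy decide which counts can be compared below, with the seed in capitals.

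miR-126a-3p: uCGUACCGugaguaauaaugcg

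miR-221-3p: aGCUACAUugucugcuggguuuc

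miR-222-3p: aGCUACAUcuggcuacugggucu

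miR-191-5p: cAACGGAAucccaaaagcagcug

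miR-199a-3p: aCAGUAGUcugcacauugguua

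miR-221-3p and miR-222-3p had the same first 8 bases, and hence the same seed, but only 11 identical positions of 23, so their counts can be told apart. The other 3 seeds each differed from these and from each other. The sequence of miR-199a-3p is also that of miR-199b-3p, made from another precursor, and the deposited plasma table gave miR-199b-3p a count of 0 in all 10 libraries. The handling of identical sequences by the submitters was not stated, so counts under miR-199a-3p may hold molecules of both precursors.

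Positions are on GRCm38.p6, with neighbours from GENCODE M21, and the build behind the deposited counts was not stated. The miR-126a precursor lies on chr2:26591357-26591429 (plus strand) and overlaps an annotated exon of an Egfl7 transcript. The miR-221 precursor (chrX:19146294-19146388) and the miR-222 precursor (chrX:19146893-19146971) lie on the minus strand, 504 bases apart, in no other annotated gene. The miR-191 precursor (chr9:108568319-108568392, plus strand) lies 384 bases from that of miR-425, both in exons of a long noncoding RNA. miR-199a comes from a precursor in Dnm3os (chr1:162217814-162217923, plus strand), 5444 bases from that of miR-214, and from a second one within an intron of Dnm2 on the opposite strand (chr9:21496495-21496564, minus strand).

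miR-126a-3p dominated the 6 in plasma and was scarce in TMVs. It took 0.0321, 0.0463 and 0.0387% of the counts in TMV replicates 1 to 3. In C26-bearing plasma it ran from 0.428 to 1.37% with a median of 1.11%, and in control plasma it took 0.632, 1.13, 1.16 and 0.678%. All 10 plasma libraries lay above all 3 TMV libraries, while the plasma groups overlapped. The mean share was 0.0390% ± 0.00711 in TMVs (SD, n = 3) against 0.900% ± 0.283 in control plasma (SD, n = 4), so that the mean in control plasma was 23.1 times that in TMVs. TMVs and plasma come from separate tables and different material, so their difference has no test. By mean share, miR-126a-3p ranked 116th of the 667 miRNAs with a count in TMVs, 15th of 849 in C26-bearing plasma and also 15th, of 594, in control plasma. In vesicle pools, fewer vesicles from a cell type and less of a miRNA per vesicle cannot be told apart.

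The other strand, miR-126a-5p, known to act on Dlk1 in endothelial cells, gave 1 count in each TMV library, a share of at most 0.00504% by the upper 95% Wilson limit. In C26-bearing replicates 1 to 6 its share was 0.0881, 0.157, 0.446, 0.0509, 0.0359 and 0%, and in control replicates 1 to 4 it was 0.0246, 0.0108, 0.0365 and 0%. The values at 0 allow up to 0.00931% in C26-bearing replicate 6 and up to 0.0377% in control replicate 4. The groups overlapped, and the 4 highest shares were those of the 4 miR-5119-rich C26-bearing libraries. Intervals and limits for counts of 0 (3 counts) cover counting error only, since the reads carry no molecular identifiers.

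miR-221-3p and miR-222-3p, which are known to repress Kit and the cell cycle inhibitor Cdkn1b, were high in TMVs. miR-221-3p took 0.756, 0.554 and 0.793% of TMV counts, 0.0155 to 0.101% in C26-bearing plasma (median 0.0608%) and 0.0413, 0.0251, 0.0563 and 0.0754% in control plasma. miR-222-3p took 1.00, 0.683 and 0.543% of TMV counts, 0.0518 to 0.266% in C26-bearing plasma (median 0.0638%) and 0.174, 0.219, 0.249 and 0% in control plasma. Every TMV library was above every plasma library for both, and the plasma groups overlapped for both. The mean in TMVs was 14.2 times that in control plasma for miR-221-3p and 4.64 times for miR-222-3p.

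miR-191-5p, an abundant miRNA of platelets that is often used as a reference in plasma assays, took 1.22, 0.796 and 0.868% of TMV counts. It took 0.202 to 0.423% in C26-bearing plasma (median 0.363%) and 0.190, 0.226, 0.373 and 0.138% in control plasma. miR-199a-3p, found in platelets and in mesenchymal cells and known to repress Met and Mtor, took 1.22, 1.18 and 2.18% of TMV counts. In C26-bearing plasma it took 0.0279 to 0.339% (median 0.165%) and in control plasma 0.0802, 0.0610, 0.0761 and 0.201%. TMVs were above all plasma libraries for both, with means 4.15 and 14.6 times those in control plasma, and the plasma groups overlapped. Leaving miR-5119 out of the totals, the 4 ratios of TMVs to control plasma were 10.7 for miR-221-3p, 4.61 for miR-222-3p, 3.67 for miR-191-5p and 10.4 for miR-199a-3p.

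**Figure D1:**
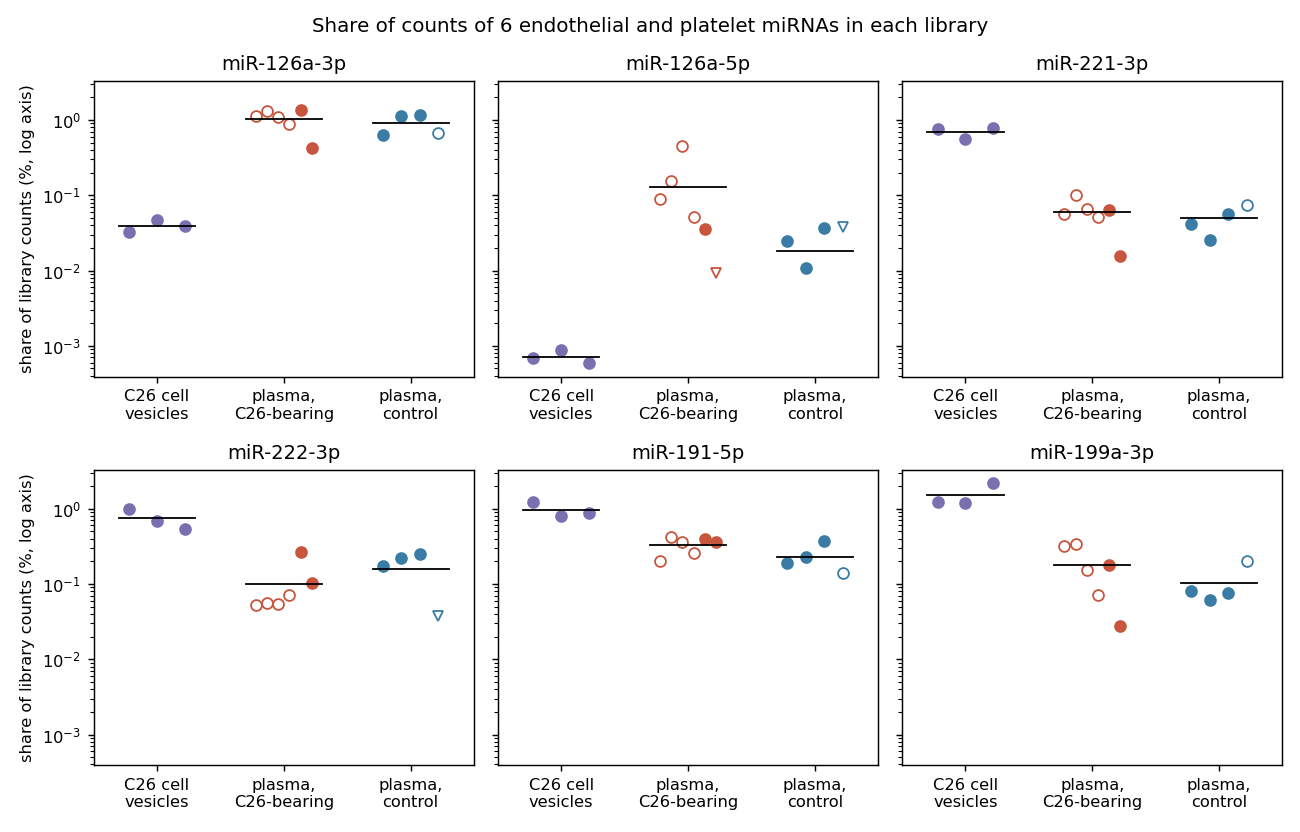
Share of library counts (%, log axis) of each miRNA, 1 point per library, with the group mean as a line. Open symbols are miR-5119-rich libraries, and triangles mark a count of 0, drawn at the share of 3 counts. miR-126a-3p is lowest in the 3 TMV libraries, and miR-221-3p, miR-222-3p, miR-191-5p and miR-199a-3p are highest there.

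Together the 6 made up 3.98% ± 0.626 of counts in TMVs (SD, n = 3), 1.84% ± 0.576 in C26-bearing plasma (SD, n = 6), and for control plasma 1.46% ± 0.416 (SD, n = 4). Their make-up differed more than their sum. miR-126a-3p was 1.02% of the 6 in TMVs, 55.8% ± 6.93 in C26-bearing plasma and, in controls, 61.1% ± 5.17 (SD). miR-199a-3p was 38.1%, 9.04% and 8.24% of the 6 in the same 3 groups, miR-191-5p 24.3%, 20.0% and 15.5%, and miR-222-3p 19%, 5.87% and 10.3%.

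In TMVs the order of mean shares was miR-199a-3p, miR-191-5p, miR-222-3p, miR-221-3p, miR-126a-3p and miR-126a-5p. Within TMV libraries miR-199a-3p exceeded miR-191-5p in 2 of 3 libraries by 0.568 ± 0.677 percentage points (SD), and miR-222-3p exceeded miR-221-3p in 2 of 3 by 0.0424 ± 0.260, so neither pair of neighbours differed beyond its spread. In control plasma the order was miR-126a-3p, miR-191-5p, miR-222-3p, miR-199a-3p, miR-221-3p and miR-126a-5p. miR-126a-3p exceeded miR-191-5p there by 0.668 ± 0.214 percentage points in 4 of 4 libraries, while miR-222-3p and miR-199a-3p differed by 0.0558 ± 0.175. In C26-bearing plasma miR-126a-3p exceeded miR-191-5p by 0.701 ± 0.340 points in 6 of 6 libraries, and none of the next 4 neighbouring pairs differed beyond the SD of its difference.

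**Figure D2:**
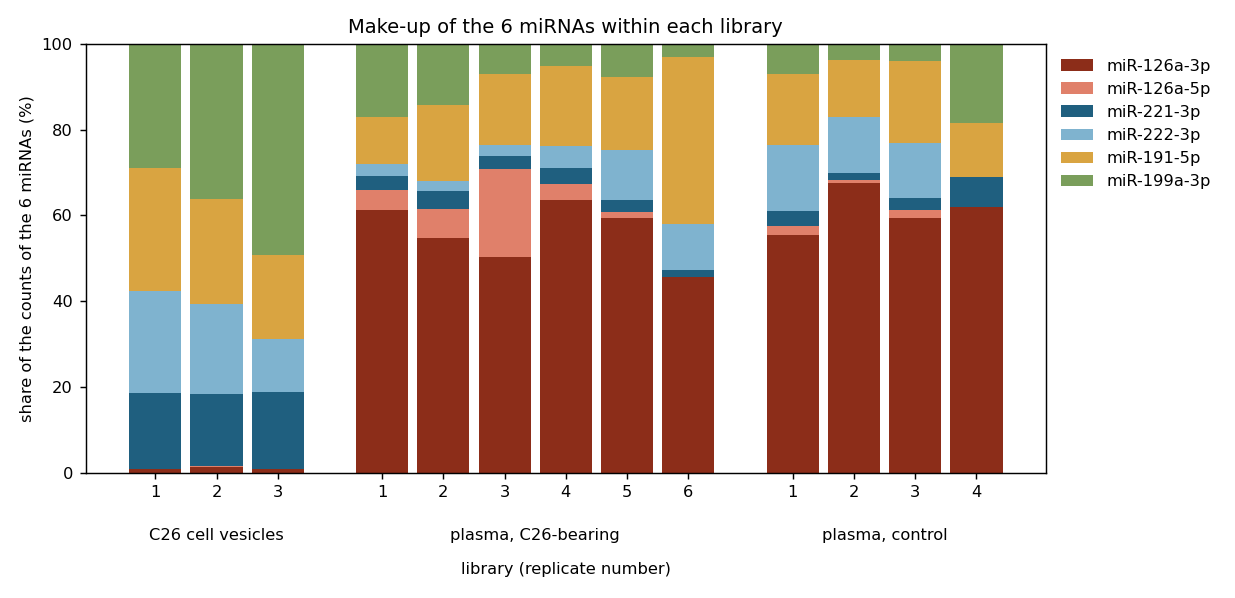
Make-up of the 6 miRNAs in each library, as the share of their summed counts (%), stacked to 100%. miR-126a-3p fills 45.5 to 63.7% of the bars of C26-bearing plasma and 55.4 to 67.7% of those of control plasma, but 0.757 to 1.42% of the TMV bars, where miR-199a-3p fills 28.8 to 49.3%.

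C26-bearing plasma was compared with control plasma by edgeR's quasi-likelihood test on all 130 miRNAs that passed a filter on low counts. None of the 6 passed an adjusted p of 0.05, and none of the 130 did (0%). At an unadjusted p under 0.05, 1 of the 6 passed, miR-126a-5p, beside 15 of the 130 (11.5%); 9 of these were higher (6.92%, with miR-126a-5p among them) and 6 lower (4.62%, none of the 6) in C26-bearing plasma. DESeq2 called 4 of the 130 (3.08%) and limma voom with quality weights 17 (13.1%), none of them among the 6. For 5 of the 6 the log2 fold change was above 0 and for 1 below 0, with a median of 0.56, beside 66 of 130 above 0 (50.8%) and 64 below (49.2%), and a median of 0.01 over all 130. The 2 groups of plasma libraries overlapped for all 6, and for all but 2 of the 130 (1.54%), 1 higher and 1 lower in C26-bearing plasma (0.769% each). All 6 passed the filter, which needs 227 CPM (counts scaled to a common library total) in at least 4 libraries, and miR-126a-5p reached this level in 5 C26-bearing and 2 control libraries.

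On levels scaled by TMM factors (in CPM), miR-126a-3p averaged 11167 ± 4124 in C26-bearing and 8658 ± 1211 in control plasma (SD, n = 6 and 4). Of the C26-bearing libraries, 4 were above all controls, 1 was among them and 1, replicate 6, was below them. This gave a log2 fold change of 0.37 (SE 0.374; edgeR adjusted p = 0.746). In the miR-5119-rich libraries alone it was 0.39 (SE 0.583) and in the miR-5119-poor alone it was -0.021 (SE 0.521). The single miR-5119-rich control is assumed in such fits to vary like the other libraries.

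miR-126a-5p had the largest log2 fold change of the 6, 3.23 (SE 1.38; edgeR unadjusted p = 0.0391, adjusted p = 0.395). Its TMM-scaled levels in C26-bearing replicates 1 to 6 were 911, 1504, 7010, 509, 316 and 0 CPM, against 272, 92.5, 271 and 0 CPM in control replicates 1 to 4. On this scale 5 of the 6 C26-bearing libraries were above all 4 controls, and replicate 6 was at 0. By share of counts, replicate 5 (0.0359%) lay below the highest control (0.0365%). Without C26-bearing replicate 3 it came to 1.95 (edgeR adjusted p = 0.721), and in the miR-5119-poor libraries alone it was -0.44 (SE 1.25; edgeR adjusted p = 0.95). In the miR-5119-rich libraries the 4 C26-bearing ones held 5 to 295 counts and the single control 0, where 3 counts would be 377 CPM before TMM scaling. After TMM scaling, 6 counts of miR-221-3p in that control came to 1037 CPM. There 3 counts would thus lie above C26-bearing replicates 4 and 5, so the 0 does not place this control below them. With a term for miR-5119-rich libraries in the edgeR fit over all 10 libraries, the log2 fold change of miR-126a-5p came to 0.85 (SE 1.49; adjusted p = 0.956).

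miR-191-5p averaged 3656 ± 1273 CPM in C26-bearing and 2177 ± 401 CPM in control plasma (SD, n = 6 and 4), and 4 of the 6 C26-bearing libraries were above all controls. The log2 fold change for it came to 0.75 (SE 0.398; edgeR adjusted p = 0.488). It was 0.84 (SE 0.726) in the miR-5119-rich and 0.74 (SE 0.433) in the miR-5119-poor libraries alone, and above 0 in all 25 alternatives tried, from 0.55 to 0.93, with adjusted p from 0.0976 to 0.998.

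For the remaining 3 the spread exceeded the difference. miR-199a-3p averaged 1916 ± 1260 CPM in C26-bearing and 1185 ± 1065 CPM in control plasma (log2 fold change 0.77, SE 0.766, edgeR adjusted p = 0.746). miR-221-3p averaged 642 ± 320 and 532 ± 353 CPM (log2 fold change 0.38, SE 0.627, edgeR adjusted p = 0.789). miR-222-3p averaged 1022 ± 683 and 1413 ± 942 CPM (log2 fold change -0.50, SE 0.798, edgeR adjusted p = 0.789).

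The levels of these 3 are given by kind of library, with no test between kinds. miR-221-3p lay at 509 to 1046 CPM in the 4 miR-5119-rich C26-bearing libraries and at 1037 CPM in the miR-5119-rich control, but at 175 and 568 CPM in the miR-5119-poor C26-bearing and 216 to 457 CPM in the miR-5119-poor control libraries, with an overlap between kinds only at 509 and 568 CPM. miR-199a-3p lay at 712 to 3270 CPM in the miR-5119-rich and at 315 and 1578 CPM in the miR-5119-poor C26-bearing libraries, where the kinds overlapped. In control plasma it lay at 2765 CPM in the miR-5119-rich library, against 524 to 888 CPM in the 3 others. miR-222-3p ran the other way, at 536 to 855 CPM in the miR-5119-rich C26-bearing libraries and 0 in the miR-5119-rich control, and at 1155 to 2335 CPM and 1845 to 1924 CPM in the miR-5119-poor libraries of the 2 groups. With the miR-5119 term, the log2 fold changes were 0.24 (SE 0.579) for miR-199a-3p, -0.13 (SE 0.597) for miR-221-3p and 0.57 (SE 0.739) for miR-222-3p, with edgeR adjusted p from 0.899 to 0.991. Without control replicate 4 that of miR-199a-3p was 1.73 (edgeR unadjusted p = 0.0482, adjusted p = 0.254). Within kinds, the log2 fold change of miR-221-3p was -0.46 (SE 0.906) in miR-5119-rich and 0.03 (SE 0.780) in miR-5119-poor libraries, and that of miR-199a-3p was -0.21 (SE 0.976) and 0.53 (SE 0.727). That of miR-222-3p was -0.11 (SE 0.480) in the miR-5119-poor libraries, and in the miR-5119-rich ones the only control held no count.

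**Figure D3:**
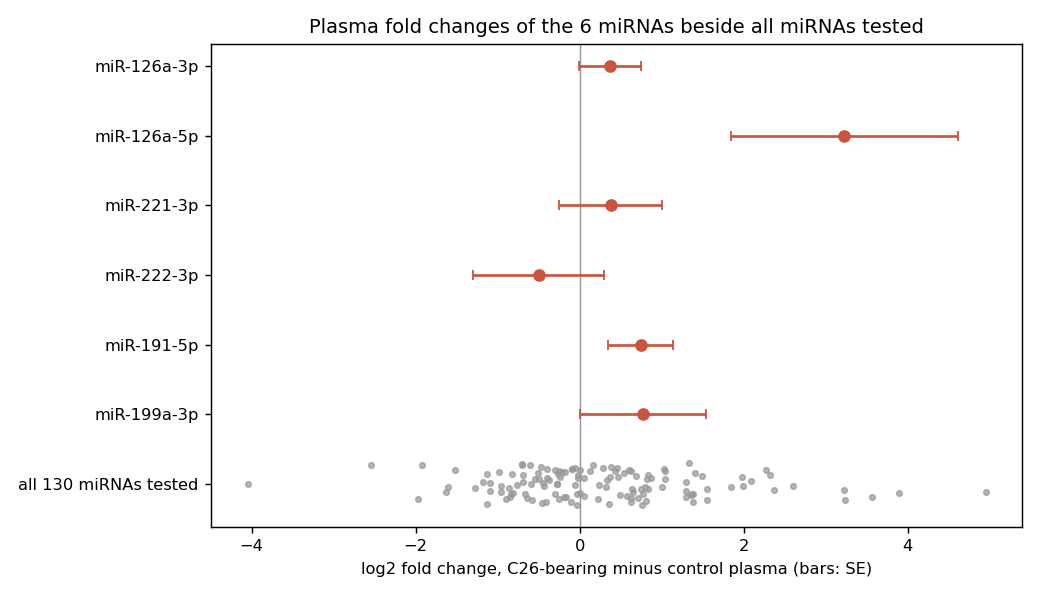
log2 fold change of each miRNA, C26-bearing minus control plasma, with SE bars, above the fold changes of all 130 miRNAs tested (grey points). The bars of miR-126a-3p, miR-221-3p and miR-222-3p cross 0, and miR-126a-5p has the widest bar. The grey points include the 6 themselves.

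Because a ratio of counts within a library does not depend on library scaling, 4 ratios were compared over the plasma libraries by exact permutation tests (two-sided, 210 splits, smallest possible p 0.00476), with p adjusted over the 4. The tested values added 0.5 to each count, so where a count was 0 they still depended on depth. The first was that of the miR-126a strands. miR-126a-5p made up 2.08, 1.89 and 1.49% of both strands in TMVs. It made up 7.23, 10.7, 29.0, 5.49, 2.55 and 0% in C26-bearing replicates 1 to 6, against 3.75, 0.940, 3.07 and 0% in control replicates 1 to 4. The 4 highest were again the miR-5119-rich C26-bearing libraries, and the groups overlapped. The mean log2 ratio (0.5 added to each count) was -4.21 ± 2.30 in C26-bearing and -5.75 ± 1.09 in control plasma (SD), a difference of 1.54 (exact permutation p = 0.257, adjusted p = 0.514). It was 3.78 in the miR-5119-rich libraries alone and -1.24 in the miR-5119-poor alone. The first rests on a single control with 0 counts of miR-126a-5p to 54 of miR-126a-3p. The second includes C26-bearing replicate 6, with 0 to 138. The added 0.5 thus sets part of both values, and neither is an estimate of size.

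The ratio of the neighbours miR-221-3p and miR-222-3p did not differ between groups beyond its spread. miR-221-3p made up 42.9, 44.8 and 59.4% of the pair in TMVs. It made up 52.4, 64.2, 55.0, 41.7, 19.6 and 13.2% in C26-bearing replicates 1 to 6, against 19.2, 10.3, 18.5 and 100% in control replicates 1 to 4. The log2 ratio differed by 0.26 (exact permutation p = 0.910, adjusted p = 1), with an SD of 1.37 in C26-bearing and 3.10 in control plasma. All 5 miR-5119-rich libraries were at 41.7% or above and all 5 miR-5119-poor ones at 19.6% or below, in both groups, as a description with no test. Separation by kind was not particular to this pair. The red cell marker miR-486a-5p lay at 17047 to 41708 CPM in miR-5119-rich and 147128 to 579105 CPM in miR-5119-poor libraries. The share of all miRNAs or pairs that separate by kind was not counted. The 100% of control replicate 4 rests on 6 counts to 0, with a lower 95% Wilson limit of 61.0%.

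The strands of miR-199a gave the only 1 of the 4 ratios that passed its test, with p adjusted over these 4. It did not pass when adjusted over 39 miRNAs with both strands counted (adjusted p = 0.186, exact permutation test). The members and lists behind the ratios were chosen with earlier results of these data known. To return to the strands of miR-199a: the sequences shown are its 5p strand, miR-214-3p, its neighbour at Dnm3os, and miR-425-5p, the neighbour of miR-191-5p, all described next, with the seeds again in capitals.

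miR-199a-5p: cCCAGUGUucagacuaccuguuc

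miR-214-3p: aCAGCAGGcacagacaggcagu

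miR-425-5p: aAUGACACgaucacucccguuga

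miR-199a-3p, whose counts may include the identical miR-199b-3p, made up 85.4, 86.0 and 87.6% of the counts under both strands in TMVs. It made up 100, 96.3, 97.1, 100, 98.0 and 100% in C26-bearing replicates 1 to 6, against 80.2, 50.0, 82.0 and 88.9% in control replicates 1 to 4. All 6 C26-bearing libraries were above all 4 controls and above all 3 TMV libraries. For background, chosen after seeing the data, 39 miRNAs had at least 20 counts of their rarer strand over the plasma libraries, and miR-199a was the only 1 of them (2.56%) whose groups did not overlap in the log2 ratio of strands. The mean log2 ratio was 4.94 ± 1.07 in C26-bearing and 1.72 ± 1.19 in control plasma (SD), a difference of 3.22 (exact permutation p = 0.00476, the smallest possible, adjusted p = 0.0190). It was 2.36 in the miR-5119-rich libraries alone and 3.28 in the miR-5119-poor alone, where the smallest possible p are 0.2 and 0.1.

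The 5p strand was itself low in C26-bearing plasma, while shares of the 3p strand overlapped between groups. miR-199a-5p took 0, 0.0131, 0.00454, 0, 0.00359 and 0% of counts in C26-bearing replicates 1 to 6, against 0.0198, 0.0610, 0.0167 and 0.0251% in control replicates 1 to 4. These groups did not overlap, but C26-bearing replicate 4, at 0, allows up to 0.0305%, and control replicate 4 rests on 2 counts. miR-199a-5p did not pass the filter, so the 1.54% of tested miRNAs without overlap is no background for it. The share of untested miRNAs without overlap was not counted. The counts were few: pooled, 486 of the 3p strand to 14 of the 5p strand in C26-bearing and 251 to 83 in control plasma. In C26-bearing replicates 4 and 6 the 100% rests on 7 and 9 counts, with lower 95% Wilson limits of 64.6% and 70.1%. With each count of 0 taken as 3 counts, a choice made after seeing the data, the difference was 1.96 (exact permutation p = 0.124, adjusted p = 0.381).

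The difference in the miR-199a strand ratio was the largest of the 39, and its p adjusted over all 39 was 0.186 (exact permutation test). In the edgeR fit with no filter on low counts, miR-199a-5p itself had a log2 fold change of -2.70 (SE 1.20; adjusted p = 0.333).

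The ratio of miR-191-5p to its neighbour miR-425-5p had nearly the same mean in both plasma groups, 3.31 ± 2.28 in C26-bearing and 3.30 ± 0.857 in control plasma on the log2 scale (SD), and 4.83 ± 0.315 in TMVs. The difference was 0.01 (exact permutation p = 1, adjusted p = 1). In C26-bearing replicate 6, 118 counts of miR-191-5p met 0 of miR-425-5p, and the other 5 C26-bearing libraries were at 76.0 to 89.3% miR-191-5p. In control replicate 4, 11 counts met 0. Without C26-bearing replicate 6 the difference was -0.91, so the near-equal means depend on that library. With 1 library left out, the adjusted p by exact permutation was 0.0635 or more.

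**Figure D4:**
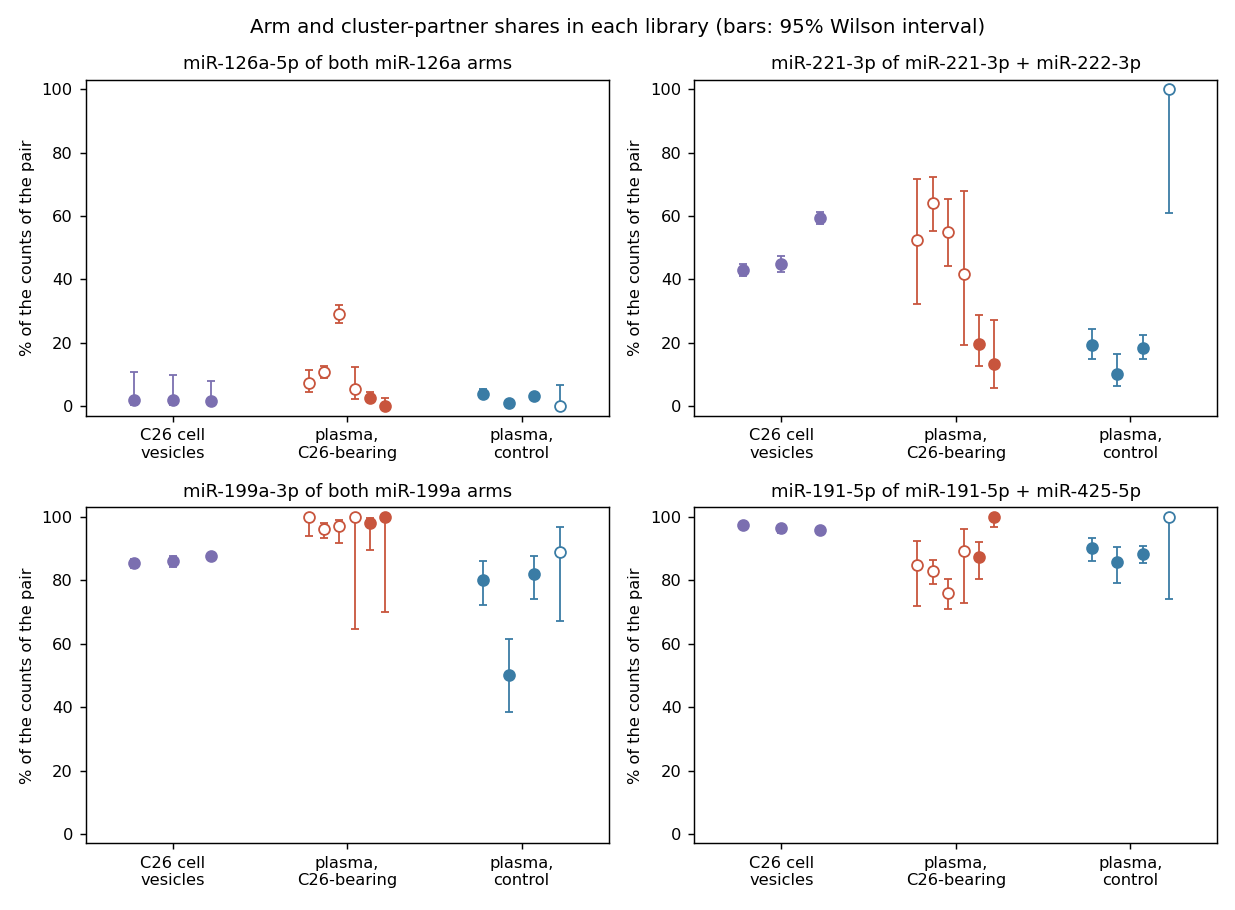
Share of a strand or neighbour within its pair (%), 1 point per library with its 95% Wilson interval, and miR-5119-rich libraries as open symbols. For the miR-199a strands all 6 C26-bearing points lie at 96.3% or above and all 4 control points at 88.9% or below, and for miR-221-3p the open symbols lie above the filled ones in plasma.

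Of the 12 strands and neighbours of these precursors, 10 were in the plasma table and 2 passed the filter. miR-425-5p had a log2 fold change of 1.33 (SE 1.02; edgeR adjusted p = 0.651). miR-214-3p, made from the same transcript as miR-199a, had -1.13 (SE 0.756; edgeR adjusted p = 0.651), and 5 of its 6 C26-bearing libraries were below all controls. Its share was 0.577, 0.470 and 0.419% in TMVs, 0.00303 to 0.0539% in C26-bearing plasma (median 0.00652%) and 0.0222, 0.0305, 0.0457 and 0.0251% in control plasma. It was thus above every plasma library in every TMV library, as was miR-199a-3p.

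Other miRNAs known from platelets and from endothelial cells were read from lists of 12 and 17. Of the platelet list 9 were tested, 7 above 0 and 2 below, none passed the edgeR test, and the median log2 fold change was 0.64. Its 4 most abundant were miR-25-3p (-0.37, SE 0.537), miR-26a-5p (0.34, SE 0.416), miR-24-3p (-0.41, SE 0.428) and miR-22-3p (0.01, SE 0.470). Of the endothelial list 12 were tested, 5 above 0 and 7 below, none passed, and the median was -0.04. Its 4 most abundant were miR-10b-5p (-0.19, SE 0.472), miR-10a-5p (-0.39, SE 0.498), miR-24-3p and miR-92a-3p (-0.06, SE 0.456). The platelet list holds both myeloid markers, with log2 fold changes of 2.27 (SE 1.72) for miR-223-3p and 1.98 (SE 0.914) for miR-142a-3p. The other strands of the same precursors, also tested, were near 0, with -0.02 (SE 0.682) for miR-223-5p and 0.05 (SE 0.379) for miR-142a-5p. The part of myeloid vesicles in the values of the platelet list was not tested.

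Likeness was read as the SD over the 10 plasma libraries of the log2 ratio to each other tested miRNA, where a small SD means that 2 miRNAs kept 1 proportion. The libraries share depth and kind, so this is a description. Counting noise and the 0.5 added to each count also widen the SD of scarce miRNAs. miR-126a-5p had 0 counts in C26-bearing replicate 6 and control replicate 4, and miR-222-3p had 0 in control replicate 4. Their ranks below therefore do not show that strands or neighbours failed to keep proportion. miR-126a-3p was most like miR-30a-5p (SD 0.382), miR-142a-5p (0.419) and miR-30e-5p (0.517), with a median SD of 1.35 over 129 candidates. miR-191-5p ranked 6th and miR-221-3p 8th for it, but its own other strand 102nd (SD 1.99). miR-126a-5p was most like miR-425-5p (1.04), miR-142a-3p (1.33) and miR-152-3p (1.43).

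miR-221-3p was most like miR-26a-5p (0.50), miR-140-3p (0.564) and miR-30a-5p (0.597), and its neighbour miR-222-3p, of the same seed, ranked 93rd (2.06). miR-222-3p was most like miR-10b-5p (0.752), miR-24-3p (0.891) and miR-532-5p (0.915). miR-191-5p was most like let-7a-5p (0.373), let-7i-5p (0.404) and miR-186-5p (0.411). miR-199a-3p was most like miR-221-3p (0.601), miR-30c-5p (0.672) and miR-140-3p (0.706).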

How the data were processed

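Per the labels' protocols, vesicles were pelleted in steps, the last at 100000 g, TriPure was used for RNA, and NEBNext small RNA libraries were sequenced on a NextSeq500 (75 bp, single-end). bcl2fastq and cutadapt 1.10 appear in the submitters' processing notes. Aligner, counting tool, annotation and build: not given in the sources used here. In the 2 tables the authors deposited counts of each mature miRNA without normalization, and 399 of the 1354 miRNAs of the plasma table had no count. Columns were tied to samples by their titles.

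Shares are percentages of a library's counts, with 95% Wilson intervals. The plasma test used edgeR 4.0.16 (R 4.3.3): filterByExpr with a minimum count of 10, TMM scaling, the quasi-likelihood fit with robust estimation, and p adjusted by Benjamini-Hochberg over 130 miRNAs at 0.05. Fold changes are C26-bearing minus control, and SEs come from the fold change and its F statistic. The biological coefficient of variation was 0.896. Ratios added 0.5 to each count and were tested by exact permutation in Python 3.11.15 (scipy 1.17.1). DESeq2 1.42.0 and limma 3.58.1 (voom) were alternatives, beside other scalings and filters, a replicate block, libraries left out and a term for miR-5119-rich libraries. The fit was tested on simulated counts.

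No 2 libraries of a group agreed within counting noise (chi-square over degrees of freedom of at least 22.5). The named miRNAs are the 6, the tested strands and neighbours, the 4 most abundant of the platelet and endothelial lists and the marker lists. Named too are the other strands of the myeloid markers and, for likeness, the 3 with the smallest SD. The members and lists were chosen with earlier results of these data known. Sequences and precursor positions are from RefSeq on GRCm38.p6.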

Additional observations from a re-analysis of the deposited data

Results flagged for a closer look

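Of 20 sets of 4 or 6 libraries examined, 6 held 1 library far from the rest by Dixon's criterion. For normally distributed values chance gives about 1 in 20, but scaled counts can be skewed and the sets share libraries and counts. Control replicate 4, the shallowest library and the only miR-5119-rich control, was the distant library in 3 of them. Its miR-222-3p level was 0 CPM, against 1845 CPM in the nearest control. Its miR-199a-3p level was 2765 CPM, against 888 CPM in the nearest control. Its log2 ratio of miR-221-3p to miR-222-3p was 3.70, against -2.06 in the nearest control. These values rest on 0, 16 and 6 to 0 counts.

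Among C26-bearing libraries, miR-126a-5p stood at 7010 CPM in replicate 3, against 1504 CPM in the nearest library. miR-222-3p stood at 2335 CPM in replicate 5, against 1155 CPM in the nearest. The log2 ratio of miR-191-5p to miR-425-5p was 7.89 in replicate 6, where miR-425-5p had no count, against 2.87 in the nearest.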

How the results depend on the processing

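None of the 6 passed an adjusted p of 0.05 in any of the 25 alternatives to the edgeR fit, where the smallest were 0.0608 for miR-126a-5p (DESeq2) and 0.0624 for miR-199a-3p (voom). Over all miRNAs the count of calls was 0, but 4 with no filter (of 955), 4 by DESeq2, 17 by voom, 2 with a miR-5119 term, 1 in miR-5119-rich libraries alone, and 0 to 1 with a library left out (1 without C26-bearing replicate 2 or 3). RLE scaling moved the median log2 fold change of all miRNAs to 0.19, and 5 of the 6 were above 0 under each of the 4 scalings.

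The log2 fold change of miR-221-3p turned to -0.019 without control replicate 2, -0.22 without both controls that carry 2 numbers, -0.13 with the miR-5119 term and -0.46 in miR-5119-rich libraries alone. That of miR-222-3p turned to 0.57 with the term and 7.45 in miR-5119-rich libraries, where the control count of 0 makes it no estimate of size. In miR-5119-poor libraries miR-126a-3p turned to -0.021 and miR-126a-5p to -0.44, and in miR-5119-rich ones miR-199a-3p to -0.21. With 1 library left out, miR-221-3p ranged from -0.019 to 1.01 (highest without control replicate 4), miR-199a-3p from 0.40 (without control replicate 2) to 1.73 (without control replicate 4), miR-222-3p from -0.98 (without C26-bearing replicate 5) to -0.33 (without C26-bearing replicate 2), miR-126a-3p from 0.22 (without control replicate 1) to 0.58 (without control replicate 4), miR-126a-5p from 1.95 (without C26-bearing replicate 3) to 3.47 and miR-191-5p from 0.56 to 0.87, all with adjusted p of 0.161 or more.

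The difference in the miR-199a strand ratio was above 0 in all 17 alternatives. It no longer passed without both 2-number controls (2.58, adjusted p = 0.143 by exact permutation), without libraries under 10000 counts (3.76, adjusted 0.0714), in miR-5119-poor (3.28) or miR-5119-rich libraries alone (2.36, both 0.400), with the replicate block (3.36, 0.167) or with 0 taken as 3 counts (1.96, 0.381). The first 5 hold too few splits for 1 ratio to pass on its own after adjustment over the 4. With 1 library left out it was 2.65 to 3.56 and still passed. miR-221 to miR-222 turned to -1.45 without both controls and -3.50 in miR-5119-rich libraries (-0.47 to 1.79 with 1 left out). miR-191 to miR-425 turned to -0.54 without both controls, -2.22 in miR-5119-rich libraries and -0.99 with the replicate block (-0.91 to 0.42 with 1 left out). For both of these ratios the only miR-5119-rich control held 0 counts of the second miRNA, so -3.50 and -2.22 are no estimates of size. The miR-126a strand ratio turned to -1.24 in miR-5119-poor libraries (0.96 to 2.32 with 1 left out). The causes were not tested.

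With miR-5119 out of the totals, the mean summed share was 2.88% in C26-bearing plasma (libraries from 0.943 to 5.26%). In control plasma it was 1.70% (libraries from 1.14 to 2.03%). With 1 library left out the sums were 3.75 to 4.33% in TMVs, 1.73 to 2.02% in C26-bearing and 1.30 to 1.59% in control plasma. Same-numbered libraries did not deviate together (correlations of -0.403, -0.341, -0.148 and 0.0788). These values cannot exclude pairs, because same-numbered libraries can differ in miR-5119 kind, but no label states pairs. With the replicate block in the edgeR fit, the smallest adjusted p of the 6 was 0.164 for miR-126a-5p (log2 fold change 3.63). The depth of 7962 and 9828 counts in 2 libraries limits every miRNA near 0.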
